A study of Mus musculus with 12 samples.

Results

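The integrated stress response is a programme by which cells slow translation under stress, and 10 of its genes are described here: Atf4, Atf5, Atf3, Ddit3, Ppp1r15a, Trib3, Sesn2, Asns, Psat1 and Chac1. They were chosen by name as genes of the ATF4 pathway, by a rule that uses no measured value but with earlier results of these data known, and each was read from its row of 12 gene count tables that hold 55401 gene identifiers. All 10 were found, and all 10 had enough reads to be among the 19378 genes tested. The cerebellum of 12 mice was sequenced in 3 groups of 4 mice. The wild-type (WT) DMSO group received the solvent dimethyl sulfoxide (DMSO) alone. The Het DMSO group was heterozygous for a knock-in allele of spinocerebellar ataxia type 1 (SCA1), Atxn1 154Q/2Q, in which the mouse Atxn1 gene carries an expanded CAG repeat, and also received DMSO alone. The Het Hit 2 group had the same genotype and received a compound named Hit 2 at 25 mg/ml in DMSO. Treatment began at 18 weeks of age in all groups and consisted of 5 daily intraperitoneal injections, 2 rest days and 5 more injections, with tissue taken at 20 weeks. All 12 mice were thus injected with DMSO, and none of the mice compared here went without injection. Xist and Y-linked reads gave 2 female and 2 male mice in the WT DMSO group and 4 male mice in each Het group. Whole tissue was used, so fewer cells of a type and less RNA per cell cannot be told apart in these values.

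The integrated stress response begins when 1 of a small family of kinases (HRI, PKR, PERK or GCN2) phosphorylates the translation initiation factor eIF2. General translation then slows, while the mRNA of the transcription factor ATF4 is translated more. ATF4 and its partners switch on genes for amino acid synthesis, tRNA charging, redox balance and, when stress lasts, cell death, and the product of Ppp1r15a closes the loop by directing a phosphatase to eIF2. In neurons the pathway is known for its part in synaptic plasticity and in the response to misfolded protein. Because ATF4 is controlled largely through translation, its mRNA level does not measure its protein, and the RNAs of its target genes are the usual readout.

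The DNA words that ATF4 and its partners bind are shown for the members whose promoters hold them. The promoters span 250 bases before to 50 bases after each gene's start in RefSeq (build GRCm38.p6), and all 10 members were in that table with 12 promoters. The words searched on both strands were TGATGNAA and TGNNGCAA, 2 overlapping forms of the C/EBP-ATF response element (the same bases can match both), and TGACGTCA, the cyclic AMP response element. The form TGNNGCAA was chosen with the member sequences already seen. Each line gives bases before the start, 5′ to 3′ on the gene's strand, with the matched word in capitals, and for Chac1, which held 3 matches, the one nearest the start.
Asns (chr6:7693214-7693243, minus strand): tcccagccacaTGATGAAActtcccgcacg
Atf3 (chr1:191183425-191183454, minus strand): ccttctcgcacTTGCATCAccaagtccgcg
Chac1 (chr2:119351038-119351067, plus strand): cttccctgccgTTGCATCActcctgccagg
Trib3 (chr2:152344075-152344104, minus strand): cgggtcacagaTGGTGCAAtcccgggccgc
Psat1 (chr19:15925177-15925206, minus strand): acgcgggtggcTGGTGCAAtcccctgctct
Atf5 (chr7:44816879-44816908, minus strand): cctaagctagcTTGCGCCAttcggcgatgg
Sesn2 (chr4:132510656-132510685, minus strand): catgcaaaagtTTGCAGCAtctgtgcgagg
Ppp1r15a (chr7:45526269-45526291, minus strand): cgcctctccggTGACGTCAgcac
The Asns word is the known nutrient-sensing response element of that gene. Atf3 and Chac1 carried the same word, TTGCATCA, which matches both forms on the opposite strand, and Trib3 and Psat1 shared TGGTGCAA followed by the same bases tccc. TGATGNAA was found in 4 of the 10 members (Trib3's match lay after the start) against 3.97% of 32851 promoters of this length. TGNNGCAA was found in 6 members (Atf3, Atf5, Chac1, Psat1, Sesn2 and Trib3) against 11.4%, and TGACGTCA in Ppp1r15a alone among the members, against 1.79%. A member was counted if any of its promoters matched, while each percentage is a share of single promoters, so these are unlike units. For Atf4 and Ddit3, none of the 3 words was found in this window. A match describes letters only and does not show that a factor was bound.

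The libraries held 15855751 to 45265719 reads assigned to genes. A pair of Het DMSO libraries, 409 and 411, and to a lesser degree the Het Hit 2 library 410 stood apart. In library 409, 0.0795% of gene reads were mitochondrial against 1.85% to 2.81% in the 10 libraries other than 409 and 411, and 7.01% of its reads mapped to several places against 4.08% to 4.89%. Library 411 is labelled cerebellum, but its 6 granule cell markers summed to a level of 32.6 CPM (reads scaled to the depth of each library) against 2907 to 4987 CPM in those 10 libraries, and its 6 Purkinje cell markers to 346 CPM against 2628 to 6328 CPM. The defining markers Gabra6 and Pcp2 were at 12 and 11 reads there, while its oligodendrocyte list reached 6417 CPM and its list for midbrain and brainstem neurons 102 CPM, above the ranges of 1248 to 5371 CPM and 1.59 to 39.6 CPM in the same 10 libraries. Library 410 set the upper limits of both ranges, which would be 3373 and 18.4 CPM without it, and also the lower limit of the Purkinje sum. It had Slc6a4 and Tph2, genes of serotonin neurons, at 14.9 and 16.0 CPM, against at most 1.32 and 2.07 CPM in the libraries other than 410 and 411. The members' counts and medians, the medians or counts of the gene lists, and the genes that moved with libraries 409 and 411 are therefore given with and without them.

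The members were expressed at very different levels. On a scale of CPM per kilobase of exon, averaged over the 12 libraries, Atf4 was highest at 34.9 ± 3.51 (SD, n = 12), followed by Asns at 19.3, Psat1 at 13.6, Atf5 at 9.44, Ppp1r15a at 6.98, Ddit3 at 5.46, Sesn2 at 5.41, Chac1 at 3.77, Trib3 at 0.691 and Atf3 at 0.519. Only the steps from Atf4 to Asns and from Chac1 to Trib3 separated neighbours whose ranges over the 12 libraries did not overlap. Ddit3 and Sesn2 had nearly the same mean, with Ddit3 the higher in 8 of 12 libraries. Raw reads ran from 10 for Atf3 in library 411 to 4025 for Atf4 in library 422. Atf3 and Trib3 had the fewest, with at least 10 and 16 reads in a library. The coefficient of variation over 12 libraries was 10.05% for Atf4, 31.4% for Atf3 and 47.0% for Psat1. The last of these was 32.6% when libraries 409 and 411 were left out.

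**Figure D1:**
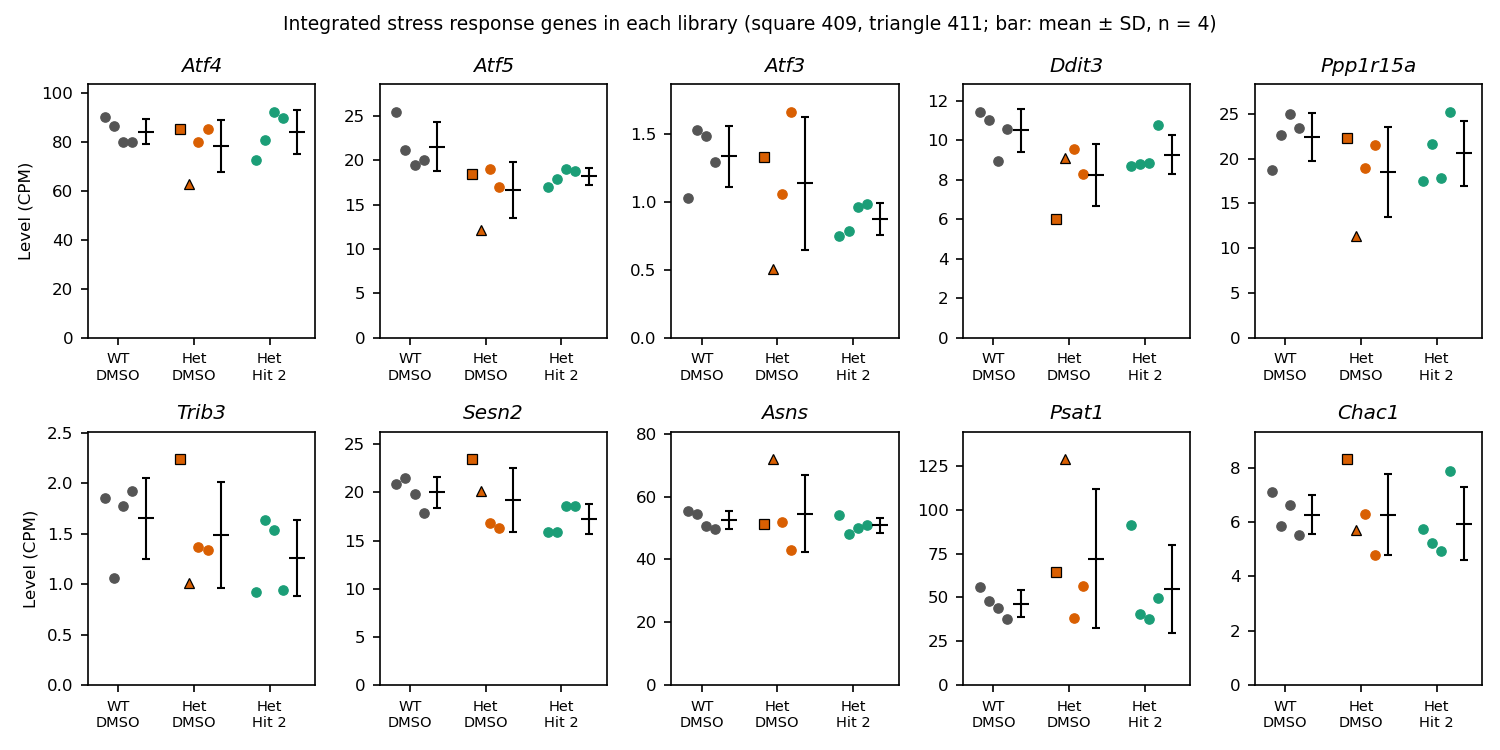
Level of each of the 10 genes in CPM (vertical axes from 0, a separate scale for each gene) in the 4 libraries of each group, with the group mean ± SD as a black bar. Squares mark library 409 and triangles library 411; the triangle is the lowest point for Atf4, Atf5, Atf3 and Ppp1r15a and the highest for Asns and Psat1.

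Atf4, the transcription factor at the centre of the response, was nearly level across the groups. Its level was 90.4, 86.6, 80.2 and 80.1 CPM in the WT DMSO libraries 413, 425, 426 and 431, in that order here and for every gene below. The Het DMSO libraries 409, 411, 420 and 429 gave 85.6, 62.9, 80.0 and 85.5 CPM, and the Het Hit 2 libraries 410, 421, 422 and 430 gave 72.7, 81.0, 92.5 and 90.0 CPM. The groups overlapped, and the lowest value was that of library 411. The log2 fold change from WT DMSO to Het DMSO was -0.10 (SE 0.12, edgeR adjusted p = 0.740, where p-values are adjusted by Benjamini-Hochberg over all genes tested), and the log2 difference of Het Hit 2 from WT DMSO was -0.0045 with a 95% interval of -0.27 to 0.27. An edgeR interval of that width leaves room for a ratio between 0.827 and 1.20 of the WT level.

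Atf5 is a related factor whose mRNA is, like Atf4's, translated more when eIF2 is phosphorylated. Its WT DMSO libraries stood at 25.5, 21.2, 19.5 and 20.0 CPM. The Het DMSO libraries stood at 18.5, 12.2, 19.0 and 17.1 CPM, and the Het Hit 2 libraries at 17.0, 17.9, 19.1 and 18.8 CPM. Every library of both Het groups lay below every WT DMSO library, although the gap between the nearest libraries (19.5 and 19.1 CPM) was small. The log2 difference of Het DMSO from WT DMSO was -0.37 (SE 0.15, 95% interval -0.71 to -0.04), lower in 4 of 4 libraries. Its unadjusted p was 0.0331 and its adjusted p 0.616 in edgeR, so it did not pass the threshold of an adjusted p of 0.05. The difference of Het Hit 2 from WT DMSO was -0.24 (SE 0.15, edgeR adjusted p = 1.00). An exact two-sided permutation test gave p = 0.0286 for both differences, the smallest p that 4 against 4 libraries allow, uncorrected for the 30 such tests made on the members. Both differences share the WT DMSO libraries. The difference of Het DMSO was -0.23 without library 411 alone, and that of Het Hit 2 was -0.16 without library 413. Leaving out libraries 409 and 411 gave -0.27 for Het DMSO against WT DMSO (SE 0.12, edgeR adjusted p = 0.836).

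The sum of the Purkinje cell markers was also lower in every Het library than in any WT DMSO library, with 6076 to 6328 CPM in WT DMSO, 346 to 5550 CPM in Het DMSO and 2628 to 5287 CPM in Het Hit 2. The most abundant gene of the list made up most of each sum, and at 4659 CPM in library 409 it lay within the WT DMSO range of 4405 to 4727 CPM. The markers Pcp2 and Calb1 were each lower in all 8 Het libraries than in any WT DMSO library, at most 158 against at least 179 CPM and at most 340.1 against at least 373 CPM. Of all genes, 2.45% were lower without overlap in Het DMSO than in WT DMSO, and 3.42% in Het Hit 2. None of the 6 markers was at 0 in any library. The astroglial sum was 2295 to 2496 CPM in WT DMSO, 1754 to 2290 CPM in Het DMSO and 2005 to 2124 CPM in Het Hit 2, a separation that its gene Slc1a3 also showed singly (at least 709 CPM in WT DMSO and at most 684 CPM in the 8 Het libraries) and that Slc1a2, Aldh1l1 and Gfap did not. Their part in the values of Atf5 was not tested.

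Atf3, a stress-induced factor downstream of ATF4, was one of the least abundant members. Its level was 1.03, 1.53, 1.49 and 1.30 CPM in WT DMSO, 1.33, 0.505, 1.06 and 1.67 CPM in Het DMSO, and 0.753, 0.791, 0.966 and 0.985 CPM in Het Hit 2. The Het Hit 2 libraries all lay below the WT DMSO libraries, those of both WT males (413 and 431) included, while the Het DMSO libraries spanned both groups. The gap between the nearest libraries was small, with 1.03 CPM (29 reads) in 413 and 0.985 CPM (21 reads) in 430. The log2 difference of Het Hit 2 from WT DMSO was -0.61 (SE 0.33, 95% interval -1.33 to 0.11, edgeR adjusted p = 1.00, exact permutation p = 0.0286). It was -0.41 with sex as a covariate and -0.62 without libraries 409 and 411, where the unadjusted p was 0.0209 and the adjusted p 0.394 in edgeR.

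Ddit3 encodes CHOP, the factor linked to cell death under lasting stress. It measured 11.5, 11.05, 8.94 and 10.6 CPM in WT DMSO, 6.04, 9.09, 9.58 and 8.30 CPM in Het DMSO, and 8.69, 8.80, 8.85 and 10.8 CPM in Het Hit 2. The lowest value belonged to library 409, and the groups overlapped. The log2 difference of Het DMSO from WT DMSO was -0.35 (SE 0.17, edgeR adjusted p = 0.616), and it was -0.23 without library 409 alone and -0.24 without libraries 409 and 411. Library 409 was also the library with the most Ddit3 reads on the strand opposite the gene, 640 against 245 on the gene's own strand. Ddit3 overlaps Mars, the methionine tRNA synthetase gene on the opposite strand, by 68 bases in the annotation. With both strands counted together, the Ddit3 difference of Het DMSO from WT DMSO was -0.13, and that of Het Hit 2 from Het DMSO was -0.04 in place of 0.17.

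The feedback genes did not separate the groups. Ppp1r15a encodes GADD34, which directs a phosphatase to eIF2. It measured 18.7, 22.6, 25.0 and 23.5 CPM in WT DMSO, 22.3, 11.3, 18.9 and 21.5 CPM in Het DMSO, and 17.5, 21.6, 17.9 and 25.2 CPM in Het Hit 2. Library 411 was far below the others. Het DMSO differed from WT DMSO by -0.28 on the log2 scale with all libraries, -0.08 without 411 alone and -0.16 without 409 and 411. Trib3, a pseudokinase that restrains ATF4 and CHOP, measured 1.86, 1.06, 1.78 and 1.92 CPM in WT DMSO, 2.24, 1.01, 1.37 and 1.33 CPM in Het DMSO, and 0.926, 1.63, 1.54 and 0.938 CPM in Het Hit 2. Its lowest value of 12 came from a Het Hit 2 library and its highest from library 409. Sesn2, an inhibitor of the growth kinase complex mTORC1, measured 20.8, 21.5, 19.8 and 17.9 CPM in WT DMSO, 23.5, 20.1, 16.9 and 16.3 CPM in Het DMSO, and 15.9, 15.9, 18.6 and 18.6 CPM in Het Hit 2. Its Het DMSO group split, with libraries 409 and 411 above the remaining pair. Without libraries 409 and 411, the log2 difference of Het DMSO from WT DMSO in Sesn2 was -0.28 (SE 0.11, unadjusted p = 0.0275, adjusted p = 0.750 in edgeR), against -0.06 with them.

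Of the metabolic targets, Asns and Chac1 varied little between groups and Psat1 varied most of all members. Asns, asparagine synthetase, measured 55.4, 54.5, 50.7 and 49.8 CPM in WT DMSO, 51.1, 72.0, 52.0 and 43.1 CPM in Het DMSO, and 54.0, 48.2, 49.99 and 51.0 CPM in Het Hit 2. Library 411 alone lay above the WT DMSO range. The log2 difference of Het Hit 2 from WT DMSO was -0.05, with an edgeR 95% interval of -0.36 to 0.26. Chac1, an enzyme that degrades glutathione and one of the most inducible ATF4 targets, measured 7.10, 5.84, 6.64 and 5.51 CPM in WT DMSO, 8.33, 5.70, 6.29 and 4.80 CPM in Het DMSO, and 5.73, 5.24, 4.92 and 7.88 CPM in Het Hit 2. Its group means were 6.27, 6.28 and 5.94 CPM, closer together than the SD within any of the groups (0.729 to 1.50 CPM).

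Psat1, the aminotransferase of serine synthesis, measured 55.8, 48.0, 44.0 and 37.6 CPM in WT DMSO, 64.8, 129, 38.1 and 56.8 CPM in Het DMSO, and 91.6, 40.5, 37.8 and 49.7 CPM in Het Hit 2. Its pair of highest libraries, 411 and 410, were also the pair with the highest oligodendrocyte sums (6417 and 5371 CPM, against 1248 to 3373 CPM in the remaining libraries) and the lowest granule cell sums (32.6 and 2907 CPM). The part of cell composition in these values was not tested. The log2 difference of Het DMSO from WT DMSO was 0.64 (SE 0.36, 95% interval -0.15 to 1.43, edgeR adjusted p = 0.616). It was 0.22 without library 411 alone and 0.03 without libraries 409 and 411. The difference of Het Hit 2 from WT DMSO was 0.24 and became -0.13 without library 410.

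**Figure D2:**
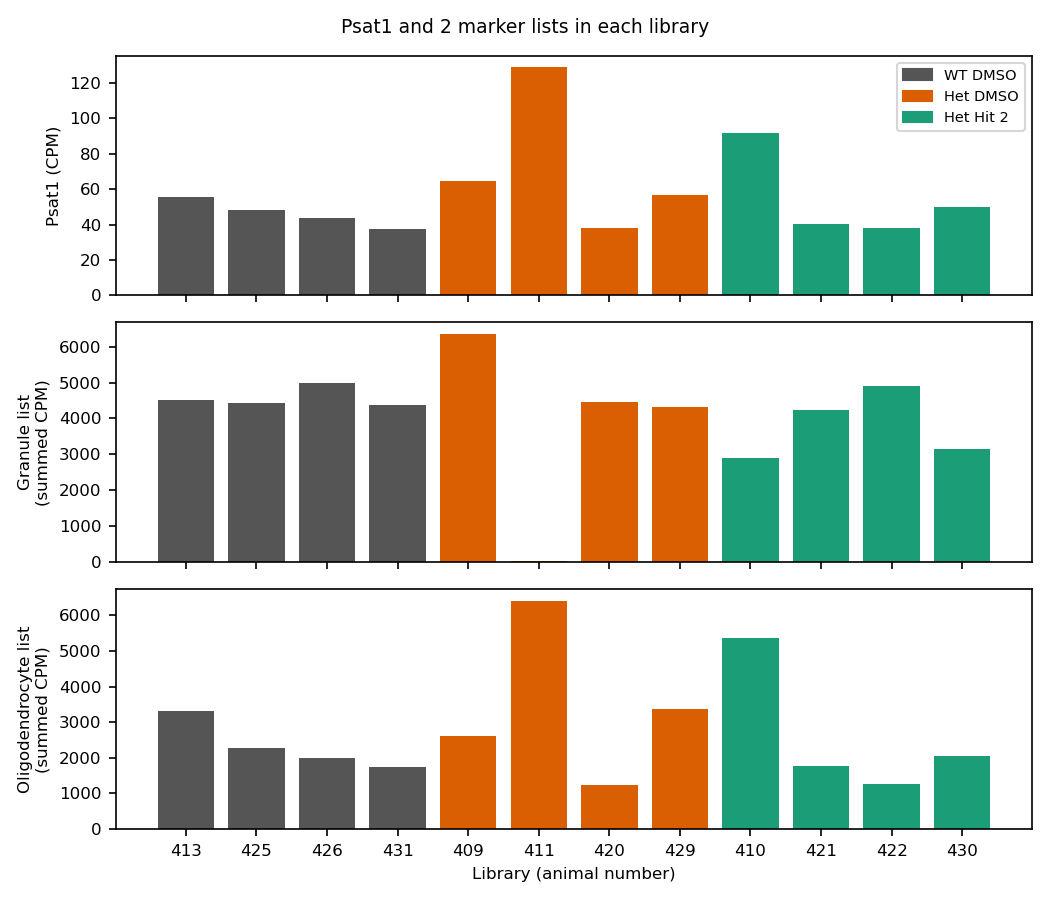
Psat1 level (CPM, top) and the summed CPM of the granule cell (middle) and oligodendrocyte (bottom) marker lists in each of the 12 libraries, coloured by group, with all axes starting at 0. Libraries 411 and 410 have the tallest Psat1 bars (129 and 91.6 CPM) and the tallest oligodendrocyte bars, and the granule cell bar of library 411 (32.6 CPM) is too short to see.

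Set side by side by comparison, no member passed the edgeR threshold in any of the 3. In Het DMSO against WT DMSO, which bears on the knock-in allele, 0 of 10 members were called, with 0.00516% of all genes called. That was 1 gene, Myo15, an unconventional myosin, named here because the count was so small, with a log2 difference of -2.86 (SE 0.28, edgeR adjusted p = 0.00507). At an unadjusted p under 0.05 there was 1 member, Atf5, against 7.11% of all genes. The median log2 fold change of the members was -0.12 against 0.05 over all genes, 7 members were lower and 3 higher, and 1 member had groups that did not overlap (Atf5, lower), against 2.45% of all genes that did not overlap in that direction. The 95% intervals of 9 of 10 members lay within a 2-fold change either way. Psat1 was the exception, with an upper limit of 1.43 on the log2 scale. DESeq2 also called 0 members, with 0.205% of all genes called. The members' median was -0.03 without library 411 alone and -0.20 without 409 alone. Without both it was -0.18, with 8 members lower and 2 higher, 0 called (0.0895% of all genes) and 2 (Sesn2 and Atf5) at an unadjusted p under 0.05 in edgeR, against 5.83% of all genes.

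Treatment was compared as Het Hit 2 against Het DMSO, where 0 of 10 members were called, with 0% of all genes called, and 0 members had an unadjusted p under 0.05 in edgeR, against 1.55% of all genes. DESeq2 also called 0 members and 0% of all genes. The median log2 fold change of the members was -0.09 against -0.04 over all genes, with 4 higher and 6 lower, and the smallest adjusted p was 0.898. No member's groups were without overlap, against 0.635% of all genes for higher and 0.392% for lower. For all 10 members the upper limit of the 95% interval was below a 2-fold rise, and for 8 the whole interval lay within 2-fold; the lower limits of Atf3 (-1.11) and Psat1 (-1.18) reached past it. The sign of the members' median changed without library 409 (0.04), with limma quality weights (0.04) and under a filter at a mean of at least 50 reads, which leaves out Atf3 and Trib3. Leaving out libraries 409 and 411 also gave a median of 0.04, with 8 members higher and 2 lower and 0 called (0% of all genes). In that fit Atf3 was the 1 member at an unadjusted p under 0.05, against 3.72% of all genes, with a log2 difference of -0.65 (SE 0.28, unadjusted p = 0.0427, adjusted p = 0.983 in edgeR).

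Treated Het mice were also compared with WT DMSO mice, where 0 of 10 members were called, with 0.00516% of all genes called, again Myo15 alone. In edgeR 0 members had an unadjusted p under 0.05, against 1.71% of all genes, and DESeq2 called 0 members, with 0.0989% of all genes called. The median log2 fold change was -0.15 against 0.02 over all genes, with 9 members lower and 1 higher (Psat1), and it was -0.26 without library 430. Atf5 and Atf3 had groups that did not overlap, both lower, against 3.42% of all genes in that direction. The interval stayed within 2-fold for 7 of 10 members, and the exceptions were Atf3 and Trib3 at the lower limit and Psat1 at the upper. Without libraries 409 and 411 the count of members called was still 0, with 0.448% of all genes called, and there were 3 at an unadjusted p under 0.05 (Atf3, Atf5 and Sesn2, all lower) against 9.5% of all genes. A test for any difference among the 3 groups called 0 of 10 members, with 0.00516% of all genes called, and 0 members had an unadjusted p under 0.05 in edgeR, against 3.11% of all genes. Each group entered 2 of the 3 comparisons, so the comparisons share libraries and are not independent.

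**Figure D3:**
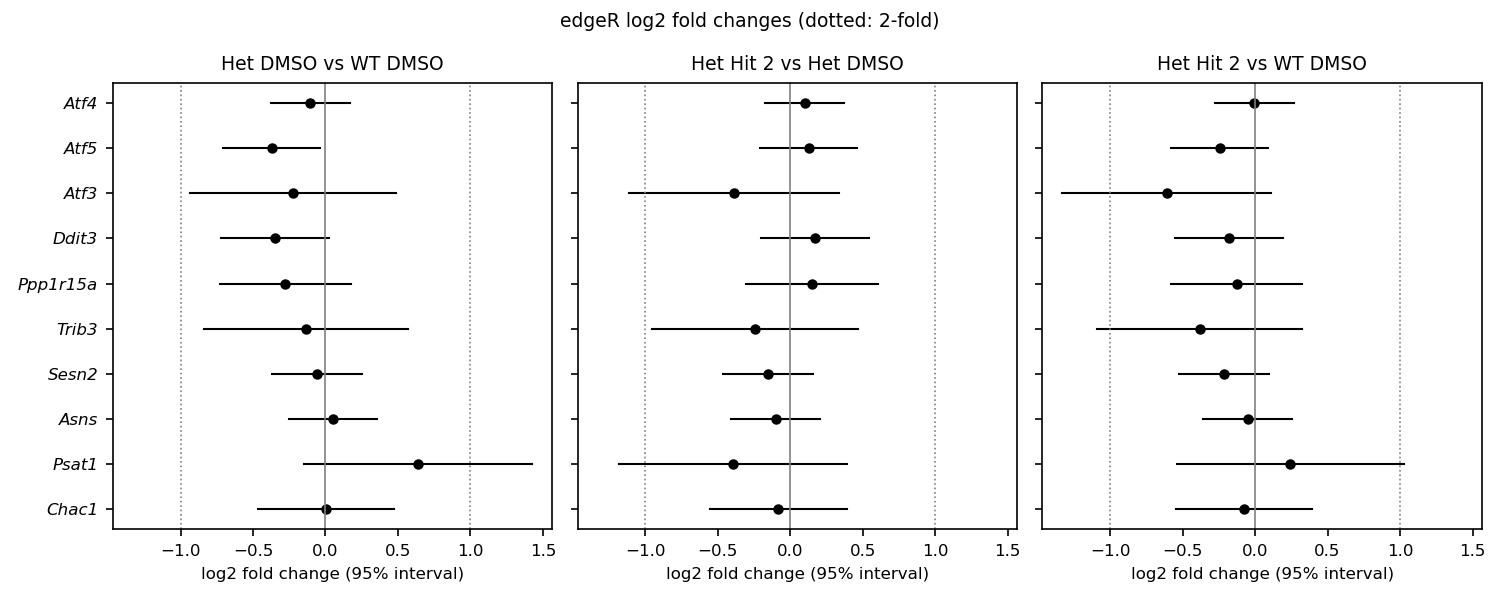
Log2 fold changes of the 10 genes from edgeR (points) with 95% intervals (lines) in the 3 comparisons; the solid vertical line is no change and the dotted lines are 2-fold. The Atf5 interval in Het DMSO against WT DMSO (-0.71 to -0.04) is the only one that does not reach 0, and the widest intervals are those of Psat1, Atf3 and Trib3.

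The members did not move as a block from library to library. When each gene's log2 CPM was standardised over the 12 libraries and averaged over the members, the 4 WT DMSO libraries had positive means (0.69, 0.40, 0.29 and 0.11 SD). The Het DMSO libraries had 0.45, -0.57, -0.18 and -0.31 SD, and the Het Hit 2 libraries -0.49, -0.42, -0.20 and 0.24 SD. A high library was therefore found in each group, and libraries 409 and 430 lay within the WT range. Library 411 combined the lowest mean with opposite extremes, being the lowest of 12 for 4 members (Atf4, Atf5, Atf3 and Ppp1r15a) and the highest for Asns and Psat1.

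**Figure D4:**
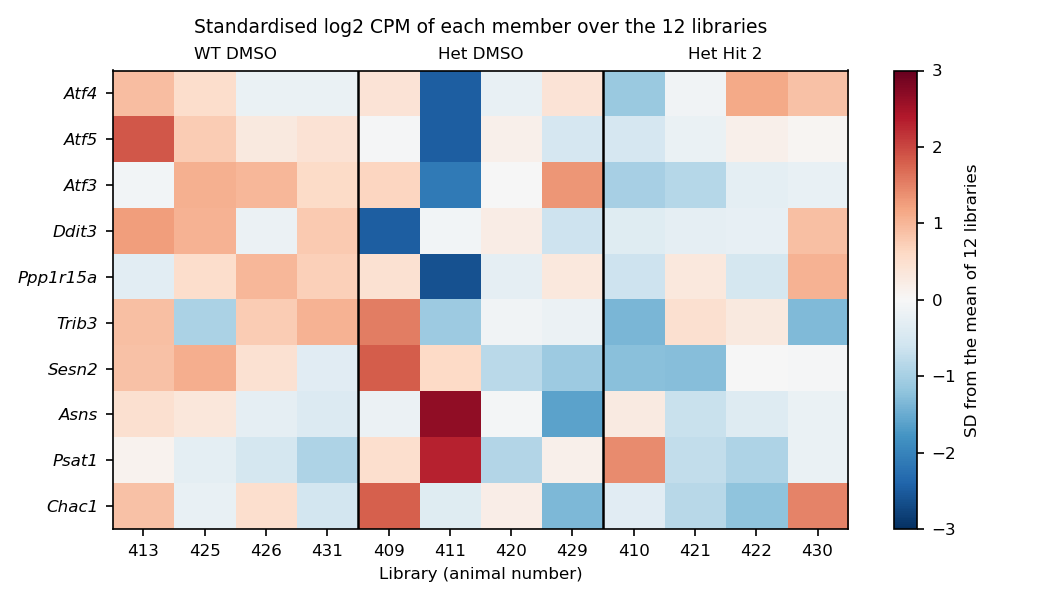
Standardised log2 CPM of each gene (rows) in each library (columns, by animal number), in SD from the gene's mean over the 12 libraries, with red high and blue low. Library 411 shows its split between 4 blue genes and the red Asns and Psat1, and library 409 has the lowest Ddit3 beside high Sesn2, Trib3 and Chac1.

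Of the 45 pairs of members, 0 had a correlation over the 12 libraries that passed Benjamini-Hochberg adjustment over the pairs. Atf4 with Atf5 had Pearson's r = 0.78 (permutation p = 0.00628, adjusted p = 0.141) and Spearman's rho = 0.53 (permutation p = 0.0793, adjusted p = 0.529). Its r was 0.30 without the 2 libraries farthest from the median of Atf4 (411 and 410), and the relation did not hold without those libraries. Atf3 with Ppp1r15a had r = 0.77 (permutation p = 0.00401, adjusted p = 0.141) and rho = 0.58 (permutation p = 0.0526, adjusted p = 0.529), and r = 0.59 without libraries 411 and 429. Without libraries 409 and 411, 2 pairs passed by Pearson's r and 0 by Spearman's rho. These were Atf5 with Ddit3 (r = 0.80, permutation p = 0.00113, adjusted p = 0.0288; rho = 0.83, permutation p = 0.00508, adjusted p = 0.114) and Atf5 with Sesn2 (r = 0.81, permutation p = 0.00128, adjusted p = 0.0288; rho = 0.85, permutation p = 0.00252, adjusted p = 0.113). With all 12 libraries the same pairs had r = 0.40 and r = 0.20. The libraries of these correlations belong to 3 groups that were pooled.

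Outside the pathway lists, the 5 genes whose log2 CPM followed the members' mean most closely among 12330 genes were Lhpp (r = 0.92), Atp2a2 (0.88), Rdh11 (0.88), Dagla (0.87) and Lrrn2 (0.87), over 12 libraries. Atp2a2 encodes the calcium pump of the endoplasmic reticulum, and Dagla an enzyme that makes an endocannabinoid. Their r was 0.83 to 0.89 without libraries 409 and 411. These are the highest values of many and are given as a description.

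The kinases that start the response were read from a list of 15 genes of the eIF2 machinery, of which all 15 were tested and 0 were called in any comparison by edgeR or DESeq2. At an unadjusted p under 0.05 in edgeR there were 1, 0 and 0 of them in Het DMSO against WT DMSO, Het Hit 2 against Het DMSO and Het Hit 2 against WT DMSO, where 7.11%, 1.55% and 1.71% of all genes were, and 1, 0 and 3 without libraries 409 and 411, against 5.83%, 3.72% and 9.5%. The list medians were 0.17, -0.06 and 0.04 with all libraries and 0.03, 0.01 and 0.03 without both. Eif2ak2, which encodes PKR, the kinase activated by double-stranded RNA, had the widest separation. It measured 7.21, 6.41, 6.56 and 7.16 CPM in WT DMSO, 2.27, 10.5, 9.96 and 11.5 CPM in Het DMSO, and 11.8, 11.7, 8.90 and 10.98 CPM in Het Hit 2. All 4 Het Hit 2 libraries lay above the WT DMSO range, against 2.9% of all genes in that direction. So did 3 of the 4 Het DMSO libraries, and library 409 lay far below the WT DMSO range. The log2 difference of Het Hit 2 from WT DMSO was 0.67 (SE 0.37, 95% interval -0.14 to 1.47, edgeR adjusted p = 1.00, exact permutation p = 0.0286). Without libraries 409 and 411 it was 0.65 (SE 0.11, edgeR adjusted p = 0.0431), in a fit that called 0.448% of all genes. With limma and a quality weight for each library, which called 1.14%, it was 0.67 (SE 0.13, limma adjusted p = 0.0275), while with only the 8 libraries of these groups fitted, which also leaves out 409 and 411, the adjusted p was 0.0710 in edgeR. Over all alternatives the adjusted p ran from 0.0275 to 1.00 and the log2 difference from 0.59, with sex as a covariate, to 0.75. The difference of Het DMSO from WT DMSO in Eif2ak2 was 0.32 (edgeR adjusted p = 0.731) with all libraries, 0.64 (edgeR adjusted p = 0.208) without 409 and 411, and 0.14 without 429 alone. Between Het Hit 2 and Het DMSO the Eif2ak2 difference was 0.35 (SE 0.37) with all libraries and 0.01 (SE 0.14) without 409 and 411.

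Eif2ak1, which encodes the heme-regulated kinase HRI, measured 55.4 to 61.5 CPM in WT DMSO, 62.0 to 75.4 CPM in Het DMSO and 61.9 to 70.7 CPM in Het Hit 2. Both Het groups lay wholly above WT DMSO, against 1.94% and 2.90% of all genes in that direction. The log2 differences were 0.20 (SE 0.10, edgeR adjusted p = 0.616) and 0.15 (SE 0.10, edgeR adjusted p = 1.00), and without libraries 409 and 411 they were 0.07 and 0.13. Eif2ak3, which encodes PERK of the endoplasmic reticulum, and Eif2ak4, which encodes the amino acid sensor GCN2, overlapped between all groups. The extremes of Eif2ak3 were libraries 409 and 411, at 98.6 and 37.3 CPM. Eif2s3x, an X-linked subunit gene of eIF2, was lower in Het Hit 2 than in WT DMSO by a log2 difference of -0.34 (SE 0.17, edgeR adjusted p = 1.00) with no overlap of groups (3.42% of all genes in that direction). It was -0.07 with sex as a covariate, and the 2 WT females had the highest WT values, 56.8 and 58.0 CPM against 41.0 and 40.7 CPM in the WT males. In the Het DMSO group, with 4 males, library 411 was higher still at 59.9 CPM. Libraries 409, 420 and 429 of that group had 39.0, 39.2 and 41.6 CPM. Gcn1, an activator of GCN2, and Eif2b2, a subunit gene of the exchange factor eIF2B, had log2 differences of 0.47 (SE 0.25) and 0.32 (SE 0.15) in Het DMSO against WT DMSO, both at an edgeR adjusted p of 0.616. They were 0.06 and 0.05 without libraries 409 and 411. Between Het Hit 2 and Het DMSO they were -0.36 and -0.24, and 0.03 and 0.02 without both libraries. Ppp1r15b, a constitutive partner of the phosphatase that acts on eIF2, had -0.31 (SE 0.18, edgeR adjusted p = 0.898) there and -0.04 without them.

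**Figure D5:**
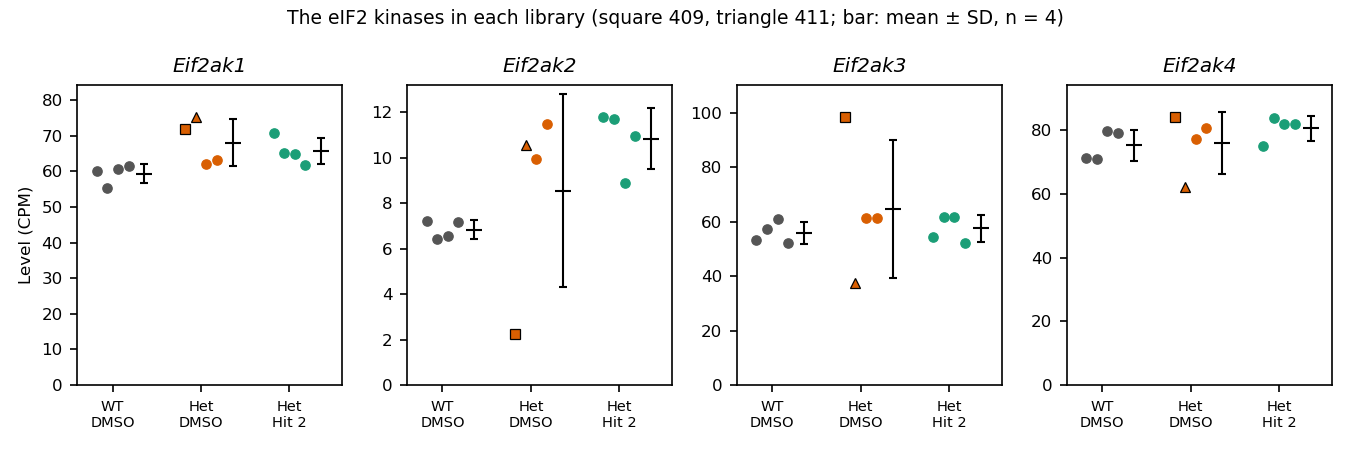
Levels in CPM of the 4 eIF2 kinase genes in the 4 libraries of each group (vertical axes from 0), with the group mean ± SD as a black bar, squares for library 409 and triangles for library 411. Eif2ak2 is between 8.90 and 11.8 CPM in Het Hit 2 and between 6.41 and 7.21 CPM in WT DMSO, and library 409 holds both its lowest value and the highest of Eif2ak3.

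A further list of 41 ATF4 targets covers serine synthesis, amino acid transport, tRNA charging and secreted factors. Of these, 39 were tested and 0 were called in either direction in any comparison by edgeR or DESeq2, with 2, 0 and 1 at an unadjusted p under 0.05 in edgeR, against 7.11%, 1.55% and 1.71% of all genes; Gdf15 and Fgf21 had too few reads. Their median log2 fold changes were 0.03, -0.09 and -0.0002 in Het DMSO against WT DMSO, Het Hit 2 against Het DMSO and Het Hit 2 against WT DMSO. The medians over all genes were 0.05, -0.04 and 0.02. Leaving out libraries 409 and 411 turned the sign of the first and second, with medians of -0.06 (13 genes higher and 26 lower, against 21 and 18 with all libraries), 0.05 (24 and 15, against 12 and 27) and -0.01 (16 and 23, against 19 and 20). In that fit 2, 1 and 3 of the 39 had an unadjusted p under 0.05 in edgeR, against 5.83%, 3.72% and 9.5% of all genes. Stc2, which encodes the secreted glycoprotein stanniocalcin, had the smallest p of the list in both comparisons with WT DMSO. It measured 3.00, 3.68, 3.32 and 3.04 CPM in WT DMSO, 1.95, 2.52, 1.87 and 1.96 CPM in Het DMSO, and 2.26, 2.77, 1.91 and 2.30 CPM in Het Hit 2. Every Het library was below every WT DMSO library, against 2.45% (Het DMSO) and 3.42% (Het Hit 2) of all genes in that direction. The log2 differences were -0.65 (SE 0.20, unadjusted p = 0.00681, adjusted p = 0.616 in edgeR) for Het DMSO and -0.50 (SE 0.20, unadjusted p = 0.0273, adjusted p = 1.00 in edgeR) for Het Hit 2. They were -0.78 and -0.52 without libraries 409 and 411. Pycr1, an enzyme of proline synthesis, had a log2 difference of -0.56 (SE 0.28, edgeR adjusted p = 1.00) in Het Hit 2 against WT DMSO with no overlap (3.42% of all genes in that direction), at 0.643 to 0.984 CPM against 1.07 to 1.55 CPM. With both strands counted together it was -0.16. Slc7a11, a cystine transporter gene, overlapped between the same groups, with -0.35 (SE 0.30, edgeR adjusted p = 1.00). It was -0.60 without library 410 and -0.18 without library 425.

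Differences of Phgdh, Sars and Yars moved with libraries 409 and 411. Phgdh, the first enzyme of serine synthesis and the partner of Psat1 in that pathway, was highest in libraries 409 and 411 (58.3 and 53.0 CPM). Its log2 difference of Het Hit 2 from Het DMSO was -0.38 (SE 0.22) with all libraries and 0.07 without them. The tRNA synthetase gene Sars had a log2 difference of 0.31 (SE 0.14, edgeR adjusted p = 0.616) in Het DMSO against WT DMSO, and 0.01 without both libraries. From Het DMSO to Het Hit 2, Sars and Yars, another tRNA synthetase gene, had -0.23 (SE 0.14) and -0.22 (SE 0.15), both at an edgeR adjusted p of 0.898, and 0.05 and 0.07 without both. Eif4ebp1, a repressor of translation, had -0.53 (SE 0.24, edgeR adjusted p = 0.616) in Het DMSO against WT DMSO, and -0.67 to -0.45 on leaving out each library in turn.

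The other branches of the response to misfolded protein in the endoplasmic reticulum, which run through ATF6 and IRE1, were read from 18 genes. All 18 were tested and 0 were called by edgeR or DESeq2, with 3, 2 and 0 at an unadjusted p under 0.05 in edgeR, against 7.11%, 1.55% and 1.71% of all genes. The median log2 fold changes were 0.09, -0.22 and -0.07 in the comparisons as ordered above, against 0.05, -0.04 and 0.02 over all genes. In the first, 14 of 18 genes were higher, against 55.8% of all genes, in the second 4 of 18 were higher, against 44.3%, and in the third 4 of 18 were higher, against 55.7%. Without libraries 409 and 411, 9 of 18 were higher in the first (median -0.0042), 2 of 18 in the second (median -0.09) and 3 of 18 in the third (median -0.08). In that fit 0, 0 and 1 of the 18 had an unadjusted p under 0.05 in edgeR, against 5.83%, 3.72% and 9.5% of all genes. The chaperone gene Hyou1 measured 111 to 127 CPM in WT DMSO and 113 to 135 CPM in Het Hit 2, while Het DMSO libraries 409 and 411 had 245 and 194 CPM and 420 and 429 had 114 and 123 CPM. Its log2 difference of Het DMSO from WT DMSO was 0.51 (SE 0.21, edgeR adjusted p = 0.616) with all libraries and -0.01 without 409 and 411. Pdia6 and Edem1, for protein folding and degradation, had 0.39 and 0.35 in the same comparison and 0.05 and 0.09 without both libraries. In Het Hit 2 against Het DMSO, Hyou1, Pdia6 and the secreted stress protein gene Manf had -0.49, -0.42 and -0.34, each at an edgeR adjusted p of 0.898, and 0.02, -0.10 and -0.08 without both. Hspa5, which encodes the main chaperone BiP, had -0.18 (SE 0.15, edgeR adjusted p = 1.00) in Het Hit 2 against WT DMSO, where Pdia4 and Sel1l, for folding and degradation, had -0.17 and -0.13 at the same adjusted p. Leaving out library 410 gave -0.28 for Hspa5 and -0.30 for Pdia4, and leaving out library 425 gave -0.10 and -0.09.

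Of 12 immediate early genes, which respond to neuronal activity and handling and to which Atf3 is often added, 11 were tested and 0 were called by edgeR, with 1, 1 and 0 at an unadjusted p under 0.05, against 7.11%, 1.55% and 1.71% of all genes. Without libraries 409 and 411 these were 3, 1 and 1, against 5.83%, 3.72% and 9.5%. Egr1 had the smallest p, with a log2 difference of -0.76 (SE 0.24, unadjusted p = 0.00771, adjusted p = 0.616 in edgeR) in Het DMSO against WT DMSO. It measured 24.4 to 36.7 CPM against 43.9 to 58.5 CPM with no overlap of the groups (2.45% of all genes in that direction). It spanned 28.7 to 72.1 CPM in Het Hit 2, and the log2 difference from Het DMSO was 0.70 (SE 0.24, edgeR adjusted p = 0.898), or 0.44 without library 430. The part of this variation in the values of Atf3 was not tested.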

How the data were processed

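Each of the 12 cerebellar libraries has a deposited table of raw gene counts, per the file headers. The counts were made by the authors with STAR 2.7.10a on GRCm39 (mm39), with FastQC 0.11.9 also named, per the submitters' processing notes; the annotation release and strand setting are not given in the sources used here. Libraries were directional and depleted of ribosomal RNA, per the labels' protocols. Counts on the strand opposite the first read were used, since 5.21% to 6.47% of gene reads lay on the other. Reads STAR left without a gene (44.7% to 54.6%) stayed out. Of 55401 identifiers, 55141 matched GENCODE M21 (GRCm38), used for symbols, exon lengths and overlaps; its coordinates are not printed.

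edgeR 4.0.16 (R 4.3.3) tested 19378 genes kept by filterByExpr in 1 quasi-likelihood fit of all 12 libraries, with TMM scaling, no covariate, two-sided tests and Benjamini-Hochberg adjustment over all genes (threshold 0.05). Levels are CPM on TMM-scaled library sizes, and log2 CPM used a prior count of 2. Intervals (95%) come from the quasi-likelihood F statistic. Exact two-sided permutation tests used all 70 assignments of 8 libraries; correlations used 100000 resamples. Scripts were tested on simulated data. Alternatives were DESeq2 1.42.0, limma 3.58.1 with library quality weights, other scalings, filters, strand and threshold, 2 groups only, robust fit, a sex covariate, and leaving out each library or 409 and 411.

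Named genes were the 10 members, in the 3 lists of the pathway (eIF2 machinery, other ATF4 targets, ATF6 and IRE1) every gene past the threshold or otherwise the 3 with the smallest p per comparison, and the 5 genes most correlated with the members' mean (at least 5 CPM, in no list). The 4 kinases, Egr1 and Myo15 were also named, after their values were seen. Members, lists and alternatives were chosen with earlier results of these data known.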

Additional observations from a re-analysis of the deposited data

Results flagged for a closer look

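Ddit3 in the Het Hit 2 group had 1 library far from the other 3, library 430 at 10.79 CPM with the next at 8.85 CPM. Trib3 in the WT DMSO group had library 425 at 1.06 CPM, with the next at 1.78 CPM. Both were found by Dixon's test at 95% in 30 checks (10 members in 3 groups), and chance alone marks about 1 group in 20.

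Reads on the strand opposite a member, which enter only the unstranded alternative, were above every WT DMSO library in library 409 of the Het DMSO group. For Ddit3 they came to 15.77 CPM (640 reads), with a highest WT DMSO value of 9.22 CPM. Libraries 429 (Het DMSO) and 422 (Het Hit 2) also exceeded that value for Ddit3, at 9.30 and 10.4 CPM. For Atf5 they came to 4.015 CPM (163 reads) in library 409, with a highest WT DMSO value of 1.77 CPM. Libraries 411, 420 and 429 (Het DMSO), at 1.87, 1.80 and 2.13 CPM, also exceeded that value for Atf5. So did libraries 422 and 430 (Het Hit 2), at 2.05 and 1.97 CPM. Atf5 overlaps Nup62 and Il4i1, and Ddit3 overlaps Mars and Gm4189, all on the opposite strand in the annotation used. The other 8 members had at most 11 opposite-strand reads in any library.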

How the results depend on the processing

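No paired analysis was possible because the animal numbers do not recur between groups. The count of members called was 0 under every alternative run, in each comparison and in the 3-group test. Of 61 results for single genes, 25 changed sign in at least 1 alternative, and 1, Eif2ak2 in Het Hit 2 against WT DMSO, was called in 2 alternatives.

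Genes called in Het DMSO against WT DMSO (1 in the fit reported) numbered 8 at an adjusted p under 0.1, 42 with DESeq2, 0 with only the 2 groups, 98 with limma quality weights and 18 without libraries 409 and 411. Leaving out 1 library gave 0 (429) to 9 (411). The genes called in Het Hit 2 against WT DMSO (1 in the fit reported) numbered 2 at 0.1, 23 with DESeq2, 4 without a filter, 2 with unstranded counts, 54 with only the 2 groups, 0 with a sex covariate, 221 with quality weights and 90 without 409 and 411, with 0 (413) to 14 (411) on leaving out 1 library. Pathway list genes called there were 1 with quality weights and 1 without 409 and 411, Eif2ak2 both times. Correlated pairs of members were 2 without 409 and 411 against 0.

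Signs changed as follows, as log2 fold changes. In Het DMSO against WT DMSO, Chac1 was -0.015 with upper-quartile factors, -0.0025 without a filter, -0.025 at a mean of at least 50 reads, -0.0045 with a sex covariate, -0.20 with quality weights and -0.19 without 409 and 411. With quality weights Asns was -0.15. Without 409 and 411 Atf3 was 0.024, Asns -0.16 and Hyou1 -0.015. In Het Hit 2 against Het DMSO, Ddit3 was -0.042 with unstranded counts. With quality weights Trib3 was 0.038, Sesn2 0.037, Asns 0.063, Chac1 0.037, Gcn1 0.057 and Yars 0.075. Without 409 and 411 Sesn2 was 0.057, Asns 0.095, Psat1 0.20, Chac1 0.10, Eif2b2 0.023, Gcn1 0.031, Hyou1 0.017, Phgdh 0.071, Sars 0.052 and Yars 0.073. In Het Hit 2 against WT DMSO, quality weights gave 0.0029 for Atf4 and -0.061 for Psat1. The cause was not tested.

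Leaving out 1 library also changed signs. In Het DMSO against WT DMSO the range was -0.15 (431) to 0.0059 (411) for Atf4, -0.46 (429) to 0.033 (411) for Atf3, -0.42 (409) to 0.039 (411) for Trib3, -0.18 (409) to 0.012 (429) for Sesn2, -0.093 (411) to 0.15 (429) for Asns and -0.17 (409) to 0.11 (429) for Chac1. Between Het Hit 2 and Het DMSO the range was -0.022 (411) to 0.15 (410) for Atf4, -0.028 (411) to 0.19 (420) for Atf5, -0.055 (411) to 0.25 (409) for Ppp1r15a, -0.43 (411) to 0.034 (409) for Trib3, -0.20 (429) to 0.029 (411) for Asns, -0.77 (410) to 0.0040 (411) for Psat1, -0.27 (430) to 0.087 (409) for Chac1 and -0.54 (411) to 0.060 (409) for Gcn1. For Het Hit 2 against WT DMSO it was -0.056 (422) to 0.050 (410) for Atf4, -0.13 (410) to 0.39 (422) for Psat1 and -0.26 (430) to 0.0015 (422) for Chac1.

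Depth limits Atf3 and Trib3 most, with as few as 10 and 16 reads in a library. With 4 libraries in a group, 2-fold changes of Psat1, Atf3 and Trib3 lay inside the intervals of 1 or more comparisons.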
